A study of Mus musculus with 11 samples.

Results

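Tcf7, Lef1, Sox4, Sox13, Tox and Tox2 encode transcription factors that bind DNA through an HMG box, and their RNA was followed in mouse lung group 2 innate lymphoid cells (ILC2) and thymic DN3 cells. They were found by symbol in a table of counts for 57186 gene entries, where each of the 6 symbols stood on 1 entry. All mice were untreated, were 14 days old and carried both a Cre recombinase (iCre) driven by Cd3g and a Rosa26 ZsGreen reporter that stays silent until Cre removes a stop sequence. A ZsGreen-positive cell therefore expressed Cd3g, a chain of the T cell receptor complex, or descends from a cell that did, and ZsGreen does not show when. The groups were DN3 cells, CD4- CD8- T cell precursors, from the thymus (3 libraries), ZsGreen-positive ILC2 from the lung (3 libraries) and ZsGreen-negative ILC2 from the lung (5 libraries). The labels give no ZsGreen gate for the DN3 cells.

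The HMG box bends DNA, and the factors differ in the motif they read and in their partners. TCF-1, the product of Tcf7, and LEF-1 read a shared motif, act with beta-catenin or with Groucho co-repressors of the TLE family, and overlap in function in early thymocytes. TCF-1 is also required for ILC2 development. Sox4 and Sox13 belong to the SOX family, and both are known from the development of interleukin 17-producing gamma-delta T cells. Tox is required for the CD4 T cell lineage and for ILC and lymphoid tissue inducer precursors, and Tox2 is its close relative.

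Because TCF and SOX factors read short motifs, the bases upstream of the members' own annotated starts were searched for CTTTGA and CTTTGT, cores of the TCF/LEF motif, and for ACAATG, a SOX core. Both strands were searched, and CTTTGT is in reverse ACAAAG, a sequence that SOX factors also read. RefSeq (GRCm38.p6) gave windows of 250 upstream bases for 5 of 6 genes. The window of Lef1 with the most matches lies before a start inside the gene, at chr3:131156044-131156293 on the plus strand, and is shown with that of Sox4, at chr13:28953720-28953949 on the minus strand, since these are the genes that differed between the lung groups. Capitals mark the matches.
Lef1: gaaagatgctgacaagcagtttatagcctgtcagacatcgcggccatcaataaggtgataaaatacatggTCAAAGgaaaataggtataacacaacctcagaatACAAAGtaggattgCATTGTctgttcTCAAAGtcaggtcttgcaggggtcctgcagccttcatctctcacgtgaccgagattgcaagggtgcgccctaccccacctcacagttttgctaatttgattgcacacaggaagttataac
Sox4: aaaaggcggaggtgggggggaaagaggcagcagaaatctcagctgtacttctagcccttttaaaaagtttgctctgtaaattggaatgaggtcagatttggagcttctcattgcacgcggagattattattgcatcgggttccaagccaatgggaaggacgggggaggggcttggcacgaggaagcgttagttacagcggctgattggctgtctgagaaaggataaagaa
The Lef1 window held 4 matches, all on the strand opposite to the gene: CTTTGA at 180 and 120 bases before the start, CTTTGT at 146 and ACAATG at 132. The other 3 Lef1 windows held none. The Sox4 stretch of 230 bases ends before the annotated first exon and held no match, and neither did the Tcf7 windows or the Sox13 window. Both Tcf7 windows hold coding bases of Tcf7 and so lie before starts inside the gene. They do not stand for the bases upstream of the whole gene, which were not searched. Of 5 Tox2 windows, an overlapping pair shared a single CTTTGA. Over all 32851 windows, 35% held at least 1 of the motifs, with CTTTGA in 13.8%, CTTTGT in 16.5% and ACAATG in 10.7%. A match is a string of letters and not a shown binding site.

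Libraries held 5951494 to 7745062 counts in DN3, 5762491 to 17627469 in ZsGreen-positive ILC2 and 4495260 to 14424313 in ZsGreen-negative ILC2. Levels are given as CPM, each count relative to its library's total after TMM scaling over the 11 libraries, so that 1 count stood for 0.0606 to 0.24 CPM. The sorted identities held: 12 ILC2 markers summed to 378 to 391 CPM in DN3, 11816 to 13738 CPM in ZsGreen-positive and 11945 to 14448 CPM in ZsGreen-negative ILC2. Il1rl1, the IL-33 receptor gene, was at 0 counts in DN3, and Ptcra, the pre-T cell receptor gene of DN3 cells, was at 0 counts in every lung library. The 10 DN3 markers summed to 5570 to 5806 CPM in DN3, 809 to 1068 CPM in ZsGreen-positive and 968 to 1118 CPM in ZsGreen-negative ILC2. Of these, Il2ra was also high in the lung, at 1088 CPM in DN3, 823 CPM in ZsGreen-positive and 965 CPM in ZsGreen-negative ILC2. Between the lung groups edgeR called 2 of 6 tested DN3 markers higher and 0 lower, or 33.3%, beside 4.52% over all genes. Cd3g, which drives Cre, averaged 153 ± 17.5 CPM in ZsGreen-positive and 35.4 ± 4.56 CPM in ZsGreen-negative ILC2 (SD, n = 3 and 5). The labels date 6 lung libraries to a 2024 batch, ZsGreen-positive library 3 and ZsGreen-negative library 5 to a 2025 batch, and the DN3 libraries to a separate date, which means that effects of tissue and of batch cannot be told apart where DN3 are compared. Nothing says that replicates came from separate mice, so p-values measure the spread between libraries, which may be technical.

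Within the lung, ZsGreen-positive ILC2 held less Sox4 and less Lef1 RNA than ZsGreen-negative ILC2, and 0 of the 6 were called higher by edgeR, DESeq2 or limma voom. Sox4 was 2.94-fold lower and Lef1 1.86-fold lower, whereas Tcf7, Sox13, Tox and Tox2 did not pass the test. At an unadjusted p under 0.05 in edgeR, 2 of the 6 would be higher (Tcf7 and Sox13) and 3 lower (Sox4, Lef1 and Tox). The 2 called members of 6 stand beside a background of 4.52% of 13771 tested genes called in either direction, 2.18% called lower and 2.35% called higher. In DN3 cells the pattern was split: Tcf7, Lef1, Sox4 and Sox13 were higher than in either ILC2 group, by 8.58-fold to 56.1-fold, and Tox and Tox2 were lower. All 6 were called in both DN3 comparisons, 4 higher and 2 lower, and for all 6 the DN3 libraries overlapped with neither lung group. Against ZsGreen-positive ILC2 the background was 75.1% of 15132 tested genes called, 34.8% higher and 40.3% lower, with no overlap for 77.8%. Against ZsGreen-negative ILC2 it was 76.7%, 35.5% higher and 41.2% lower, with no overlap for 73.4%. Most tested genes were thus also called and without overlap in the DN3 comparisons. The 2 of 6 called lower lie near the background and the 4 of 6 called higher lie above it, a difference that was not tested. The DN3 comparisons share the DN3 libraries, and their lung libraries are those of the lung comparison. In bulk RNA, fewer expressing cells and less RNA per cell cannot be told apart.

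**Figure D1:**
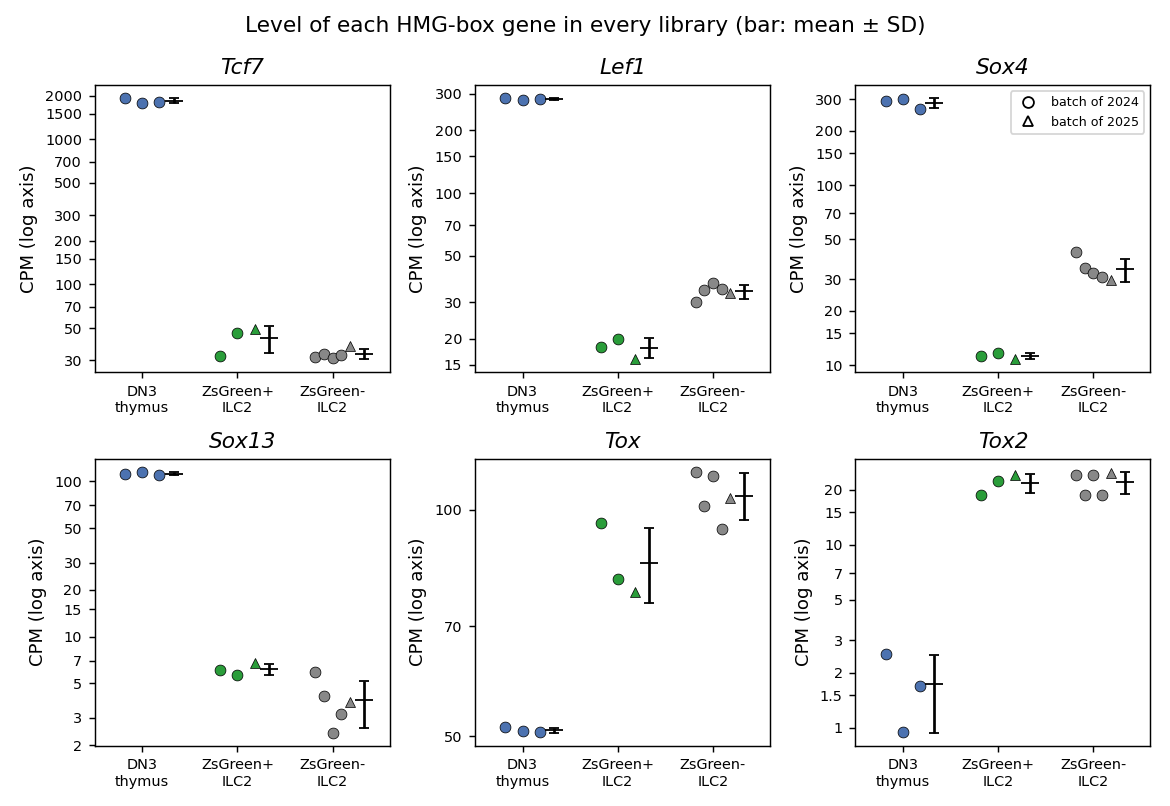
Level of each gene (CPM, log axis, own scale per panel) in every DN3, ZsGreen-positive and ZsGreen-negative library, with the group mean ± SD beside the points; triangles are the 2025 batch, and the DN3 libraries form a separate batch of 2024. Sox4 lies at 265 to 299 CPM in DN3, 10.8 to 11.7 CPM in ZsGreen-positive and 29.7 to 42.4 CPM in ZsGreen-negative ILC2, with no overlap.

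Tcf7 (ENSMUSG00000000782), the gene for TCF-1, measured 1924, 1788 and 1818 CPM in the DN3 libraries. It measured 32.2, 46.6 and 49.2 CPM in ZsGreen-positive and 31.7, 33.2, 31.2, 32.6 and 37.9 CPM in ZsGreen-negative ILC2. DN3 thus stood far above every lung library, while ZsGreen-positive library 1 lay among the ZsGreen-negative libraries and the other ZsGreen-positive libraries lay above all of them. The log2 fold change was 5.81 ± 0.12 for DN3 over ZsGreen-negative (SE; edgeR, BH-adjusted p = 7.1e-21) and 5.46 ± 0.14 for DN3 over ZsGreen-positive ILC2 (edgeR, BH-adjusted p = 3.86e-19). Between the lung groups it was 0.32 ± 0.12, which did not pass (edgeR, BH-adjusted p = 0.159, unadjusted 0.0165). This value depended on single libraries: it was 0.47 without ZsGreen-positive library 1, where it passed (edgeR, BH-adjusted p = 0.0405), and 0.15 without ZsGreen-positive library 2 (edgeR, BH-adjusted p = 0.714).

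Lef1 (ENSMUSG00000027985), whose protein shares targets with TCF-1, measured 286, 280.4 and 282 CPM in DN3. The ZsGreen-positive libraries held 18.3, 19.99 and 16.0 CPM and the ZsGreen-negative libraries 29.9, 34.1, 37, 34.8 and 33.1 CPM. The groups were separate in the order DN3, ZsGreen-negative, ZsGreen-positive, with every ZsGreen-positive library below every ZsGreen-negative library; such separation in either direction was seen for 10.3% of tested genes between the lung groups. The lung log2 fold change was −0.89 ± 0.12 (SE; edgeR, BH-adjusted p = 0.000282), at rank 58 by p among the 13771 genes. Against DN3 the gap was wider for ZsGreen-positive ILC2, at 4.02 ± 0.11 (SE; edgeR, BH-adjusted p = 1.12e-18), than for ZsGreen-negative ILC2, at 3.10 ± 0.09 (SE; edgeR, BH-adjusted p = 1.33e-18), a difference that is the lung contrast itself. Reads of the antisense gene Lef1os1, which overlaps Lef1 exons, numbered 34 to 51 counts in DN3, 0 to 13 in ZsGreen-positive and 1 to 9 in ZsGreen-negative libraries, against at least 109 Lef1 counts in any library; whether counting used the strand is not given in the sources used here.

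Sox4 (ENSMUSG00000076431), a SOX factor of lymphoid progenitors, measured 295, 299 and 265 CPM in DN3. It measured 11.2, 11.7 and 10.8 CPM in ZsGreen-positive and 42.4, 34.6, 32.7, 30.8 and 29.7 CPM in ZsGreen-negative ILC2. The ZsGreen-positive libraries were closely grouped (mean 11.3 ± 0.446 CPM, SD, n = 3) and all lay below the lowest ZsGreen-negative library. At −1.56 ± 0.14 (SE; edgeR, BH-adjusted p = 1.98e-06), the lung log2 fold change was the 13th by p of all genes tested and the largest in size of the 6. The DN3 values were 4.71 ± 0.13 over ZsGreen-positive (SE; edgeR, BH-adjusted p = 1.15e-18) and 3.11 ± 0.10 over ZsGreen-negative ILC2 (SE; edgeR, BH-adjusted p = 7.76e-18).

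Sox4 and Lef1 were lower in the ZsGreen-positive libraries of each batch. In the 2024 batch alone the log2 fold change was −1.61 ± 0.18 for Sox4 (SE; edgeR, BH-adjusted p = 2.59e-05) and −0.82 ± 0.15 for Lef1 (SE; edgeR, BH-adjusted p = 0.00594). In the 2025 batch, with 1 library of each kind and so no test, the ZsGreen-positive to ZsGreen-negative ratio was 0.365 for Sox4 and 0.483 for Lef1, beside 0.327 and 0.565 in the 2024 batch. The other members also kept their direction: the ratio in the 2024 and the 2025 batch was 1.22 and 1.30 for Tcf7, 1.51 and 1.77 for Sox13, 0.846 and 0.752 for Tox, and 0.963 and 0.972 for Tox2.

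Sox13 (ENSMUSG00000070643), known from gamma-delta thymocytes, measured 111, 115 and 110.2 CPM in DN3. Its lung levels were low, at 6.12, 5.68 and 6.73 CPM in ZsGreen-positive (42, 31 and 111 counts) and 5.88, 4.15, 2.40, 3.16 and 3.79 CPM in ZsGreen-negative libraries (34, 23, 10, 19 and 51 counts). DN3 did not overlap with the lung, whereas ZsGreen-negative library 1 reached into the ZsGreen-positive range. The log2 fold change was 4.19 ± 0.16 for DN3 over ZsGreen-positive (SE; edgeR, BH-adjusted p = 2.57e-16) and 4.87 ± 0.14 for DN3 over ZsGreen-negative ILC2 (SE; edgeR, BH-adjusted p = 2.55e-18). The lung value of 0.66 ± 0.27 did not pass (edgeR, BH-adjusted p = 0.206). It passed in the fit of all 11 libraries, which had no batch term, at 0.68 (edgeR, BH-adjusted p = 0.0345).

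Tox (ENSMUSG00000041272) had the reverse order, with 51.3, 50.7 and 50.6 CPM in DN3. It measured 96.1, 81.0 and 77.9 CPM in ZsGreen-positive and 112, 101, 111, 94.4 and 104 CPM in ZsGreen-negative ILC2. DN3 lay below all lung libraries, and the lung groups overlapped through ZsGreen-positive library 1 and ZsGreen-negative library 4. DN3 were 1.63-fold lower than ZsGreen-positive (log2 fold change −0.70 ± 0.10, SE; edgeR, BH-adjusted p = 1.94e-06) and 2.01-fold lower than ZsGreen-negative ILC2 (−1.01 ± 0.09; edgeR, BH-adjusted p = 1.89e-09). The lung value of −0.29 ± 0.09 did not pass (edgeR, BH-adjusted p = 0.0904) but passed without ZsGreen-negative library 4, at −0.33 (edgeR, BH-adjusted p = 0.0427). Gm11802, antisense to Tox exons, had 1 to 4 counts in DN3, 3 to 20 in ZsGreen-positive and 1 to 14 in ZsGreen-negative libraries, against at least 367 for Tox.

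Tox2 (ENSMUSG00000074607), known from follicular helper T cells, was near the limit of detection in DN3, with 2.52, 0.951 and 1.70 CPM from 18, 9 and 15 counts. It measured 18.8, 22.4 and 23.9 CPM in ZsGreen-positive and 24.0, 18.8, 24.0, 18.6 and 24.6 CPM in ZsGreen-negative ILC2. The lung groups covered the same range, and DN3 lay below both. DN3 were 12.7-fold lower than ZsGreen-positive (log2 fold change −3.66 ± 0.24, SE; edgeR, BH-adjusted p = 6.99e-12) and 12.9-fold lower than ZsGreen-negative ILC2 (−3.69 ± 0.23; edgeR, BH-adjusted p = 2.42e-12). The lung value was −0.05 ± 0.14 (edgeR, BH-adjusted p = 0.928).

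**Figure D2:**
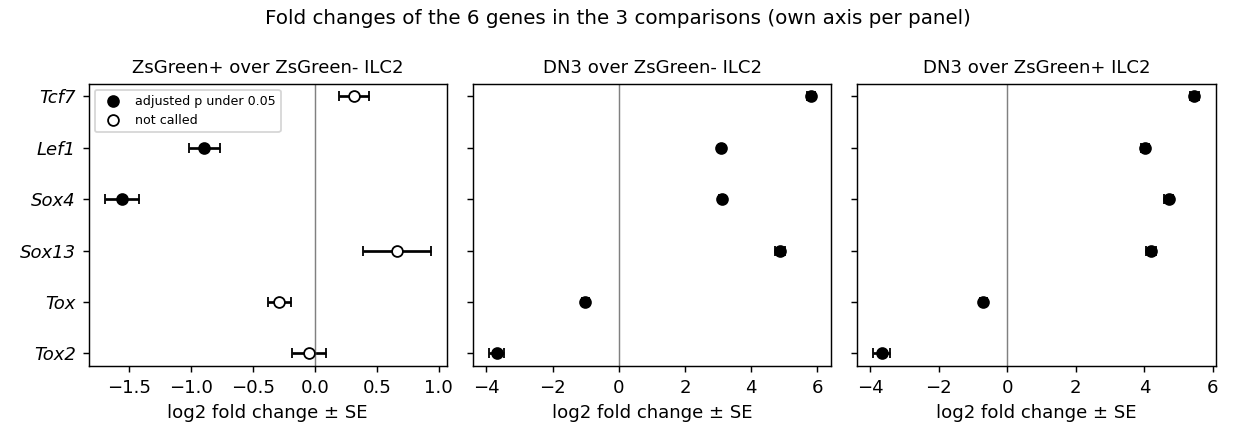
Log2 fold change ± SE of the 6 genes (own axis per panel) for ZsGreen-positive over ZsGreen-negative ILC2, DN3 over ZsGreen-negative ILC2 and DN3 over ZsGreen-positive ILC2; filled points passed a BH-adjusted p of 0.05 in edgeR. Sox4 at −1.56 and Lef1 at −0.89 were called in the lung, and all 6 genes were called in both DN3 comparisons.

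Ordered by level, Tcf7 and Sox13 had DN3 first, then ZsGreen-positive and ZsGreen-negative ILC2, whose ranges overlapped and whose difference was not called. For Sox13 the lung means, 6.18 ± 0.524 CPM in ZsGreen-positive and 3.88 ± 1.30 CPM in ZsGreen-negative ILC2, were further apart than either SD, and the overlap came through ZsGreen-negative library 1. Lef1 and Sox4 had 3 separate levels, with ZsGreen-negative ILC2 between DN3 and ZsGreen-positive ILC2. Tox and Tox2 had both lung groups on top, with overlapping ranges and no call between them, and DN3 at the bottom. For Tox the lung means, 85.0 ± 9.75 CPM in ZsGreen-positive and 104.5 ± 7.41 CPM in ZsGreen-negative ILC2, were further apart than either SD, whereas those of Tox2 were within it. Sox4 and Lef1 were thus the members for which ZsGreen-positive ILC2 lay further from DN3 than ZsGreen-negative ILC2 did.

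The balance between members within a library, which no scaling affects, differed between the groups. The Tcf7 to Lef1 count ratio was 6.38 to 6.72 in DN3, 1.75, 2.33 and 3.08 in ZsGreen-positive and 0.844 to 1.14 in ZsGreen-negative libraries. The Tcf7 to Sox4 ratio was 5.97 to 6.86 in DN3, 2.87 to 4.54 in ZsGreen-positive and 0.747 to 1.28 in ZsGreen-negative libraries. In both ratios the groups did not overlap and ZsGreen-positive ILC2 stood between DN3 and ZsGreen-negative ILC2. The Lef1 to Sox4 ratio behaved otherwise: it was 0.937 to 1.06 in DN3 and 0.706 to 1.13 in ZsGreen-negative libraries, which overlapped, and 1.47 to 1.70 in ZsGreen-positive libraries. The Sox4 to Sox13 ratio separated the ZsGreen-negative libraries, at 7.21 to 13.6, from 2.41 to 2.66 in DN3 and 1.61 to 2.06 in ZsGreen-positive libraries. The Tox to Tox2 ratio was 20.4 to 53.3 in DN3, resting on 9 to 18 Tox2 counts, and overlapped between ZsGreen-positive (3.25 to 5.12) and ZsGreen-negative libraries (4.21 to 5.39). These ratios restate the members' levels and were not tested.

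**Figure D3:**
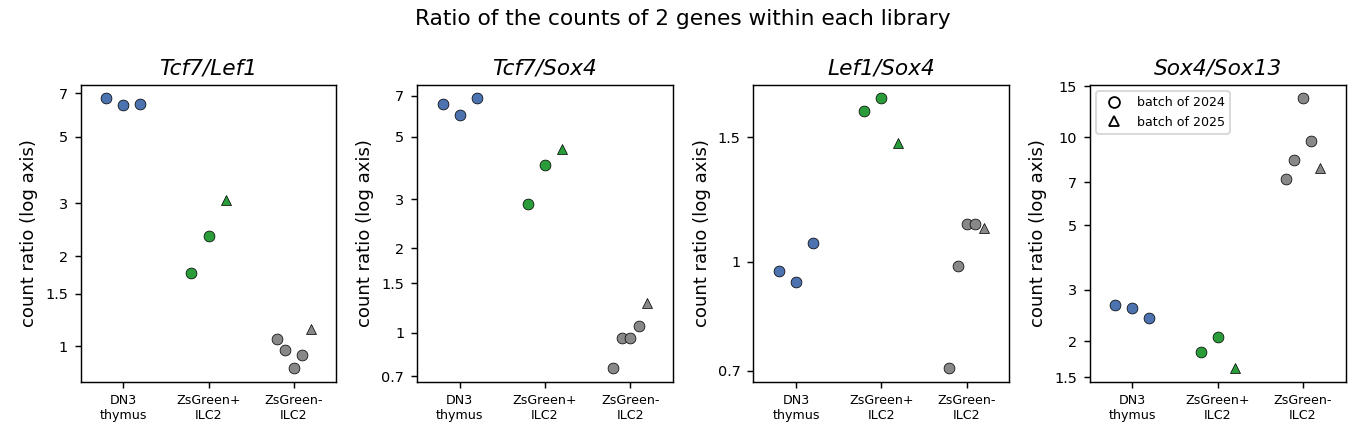
Ratio of the counts of 2 genes within each library (log axis) in DN3, ZsGreen-positive and ZsGreen-negative libraries, with triangles for the 2025 batch. The Tcf7 to Lef1 ratio is 6.38 to 6.72 in DN3, 1.75 to 3.08 in ZsGreen-positive and 0.844 to 1.14 in ZsGreen-negative libraries, and the Sox4 to Sox13 ratio is above 7 in ZsGreen-negative libraries alone.

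Transcripts of lung structural cells (epithelium, endothelium and fibroblasts) moved with the ZsGreen groups. The 30 markers summed to 223 to 254 CPM in DN3, 1405 to 3430 CPM in ZsGreen-positive and 542 to 1564 CPM in ZsGreen-negative libraries, and 6 of 28 tested were called higher in ZsGreen-positive ILC2 and 0 lower in edgeR (17 and 0 at an unadjusted p under 0.05, 11 and 0 in DESeq2, 10 and 0 in limma voom). The edgeR calls were 21.4% of the 28, beside 4.52% over all genes. The alveolar surfactant gene Sftpc averaged 0.128 CPM in DN3, 564 CPM in ZsGreen-positive and 229.8 CPM in ZsGreen-negative ILC2. Their score, the mean log2(CPM + 1), was 4.05, 4.23 and 4.77 in ZsGreen-positive and 3.56, 3.20, 4.13, 2.94 and 3.13 in ZsGreen-negative libraries. ZsGreen-negative library 3, whose score exceeded that of ZsGreen-positive library 1, held 37 CPM of Lef1 and 32.7 CPM of Sox4, among the other ZsGreen-negative libraries. With the score as a term in the fit, Sox4 was called lower, at −1.70 ± 0.23 (SE; edgeR, BH-adjusted p = 0.000563). Lef1 kept its value, at −0.88 ± 0.21, and lost its call (edgeR, BH-adjusted p = 0.0845), in a fit that called 11 genes higher and 34 lower. The score overlapped between the ZsGreen groups only through ZsGreen-negative library 3, so this fit separates score and group poorly. The part of structural cells in the Sox4 and Lef1 levels was not tested. Markers of mature alpha-beta T cells summed to 779 to 877 CPM in DN3, 386 to 503 CPM in ZsGreen-positive and 399 to 454 CPM in ZsGreen-negative ILC2, with Cd4, Cd8a and Cd8b1 at group means of at most 0.613 CPM in the lung. Of 7 tested in the lung, edgeR, DESeq2 and limma voom each called 1 higher and 0 lower (2 and 1 at an unadjusted p under 0.05). In edgeR that is 14.3%, beside 4.52% over all genes. The median log2 fold change of the 7 was −0.22, beside −0.00058 over all genes. Of the whole list, Trbc1, Cd5, Cd6 and Ccr7 had lower means in ZsGreen-positive than in ZsGreen-negative ILC2, and the other genes had higher means. Among the latter were Cd4 (0.546 and 0.192 CPM in ZsGreen-positive and ZsGreen-negative ILC2), Cd8a (0.613 and 0.216 CPM) and Cd8b1 (0.341 and 0.0298 CPM), all at few counts. The gene called by edgeR was Cd40lg, a co-stimulatory ligand of activated T cells, at 5.21 ± 1.89 CPM in ZsGreen-positive and 1.51 ± 0.422 CPM in ZsGreen-negative ILC2 (edgeR, BH-adjusted p = 0.00671). The mean log2(CPM + 1) of this list was 2.56, 2.78 and 3.13 in ZsGreen-positive libraries 1, 2 and 3, where Tcf7 was at 32.2, 46.6 and 49.2 CPM, and 2.502 to 2.70 in ZsGreen-negative libraries. Gamma-delta T cell markers, a list that includes Sox13 itself, summed to 1201 to 1310 CPM in DN3, 225 to 256 CPM in ZsGreen-positive and 132 to 176 CPM in ZsGreen-negative ILC2. The part of T cells in the Tcf7 and Sox13 levels was not tested.

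**Figure D4:**
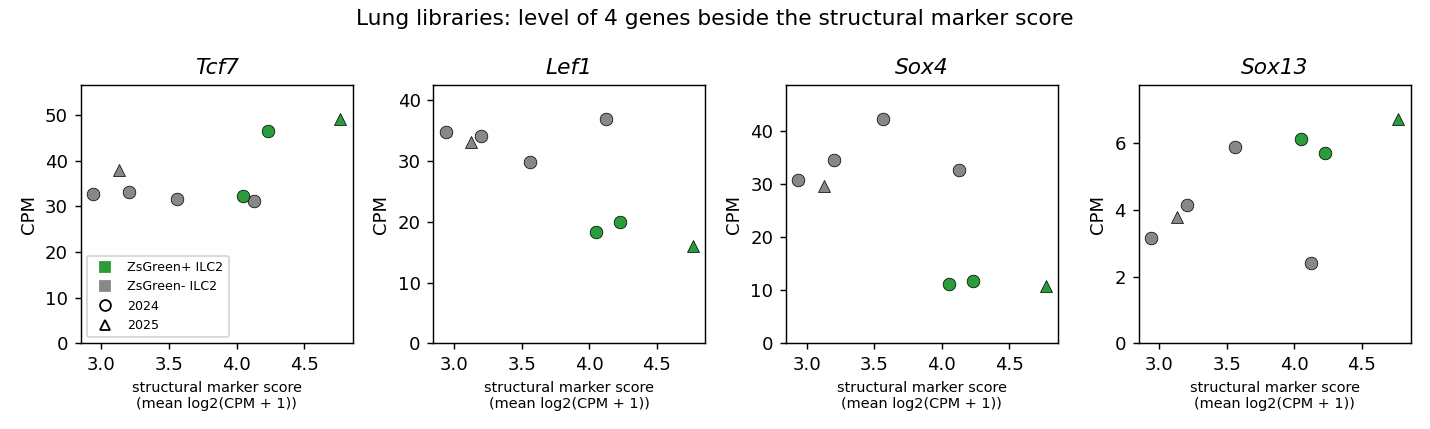
Level (CPM) of Tcf7, Lef1, Sox4 and Sox13 in the 8 lung libraries against the structural marker score, the mean log2(CPM + 1) of 30 markers; triangles are the 2025 batch. ZsGreen-negative library 3, at a score of 4.13, holds Lef1 (37 CPM) and Sox4 (32.7 CPM) with the other ZsGreen-negative libraries and above all ZsGreen-positive libraries. The part of structural cells in these levels was not tested.

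Of 38 further HMG-box genes, 22 were tested between the lung groups, and 4.55% were called, near the 4.52% over all genes. Of the 22, 1 was called higher and 0 lower in edgeR (2 and 1 at an unadjusted p under 0.05, and again 1 and 0 in DESeq2 and in limma voom), with a median log2 fold change of −0.04, beside −0.00058 over all genes tested. The gene called was Sox17, a factor of endothelial cells, at 3.54 ± 1.74 CPM in ZsGreen-positive and 1.155 ± 0.463 CPM in ZsGreen-negative ILC2 (edgeR, BH-adjusted p = 0.0366), named here after its values were seen. The most abundant family members were not called: the chromatin protein gene Hmgb2 averaged 318 ± 19.0 CPM in ZsGreen-positive and 337 ± 29.5 CPM in ZsGreen-negative ILC2, and Ubtf, a factor of ribosomal RNA transcription, 312 ± 30.2 and 321 ± 31.3 CPM in ZsGreen-positive and ZsGreen-negative ILC2.

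Against ZsGreen-negative ILC2, 15 of 25 tested family members were higher in DN3 and 8 lower (median log2 fold change 0.46, beside −0.10 over all genes). That is 92% called, beside 76.7% over all genes (35.5% higher and 41.2% lower). Against ZsGreen-positive ILC2, 14 were higher and 8 lower (median 0.48, beside −0.08), or 88% called beside 75.1% (34.8% higher and 40.3% lower). Tcf7l1, which encodes TCF-3, mostly a repressor of Wnt targets, went the opposite way to Tcf7 and Lef1: it averaged 2.12 ± 0.276 CPM in DN3, 23.3 ± 1.51 CPM in ZsGreen-positive and 30.3 ± 3.57 CPM in ZsGreen-negative ILC2. Its log2 fold change was −3.42 ± 0.19 for DN3 over ZsGreen-positive and −3.80 ± 0.18 for DN3 over ZsGreen-negative ILC2. The replication-linked Wdhd1 was higher in DN3, at 98.8 ± 3.45 CPM in DN3, 25.2 ± 0.171 CPM in ZsGreen-positive and 25.7 ± 3.64 CPM in ZsGreen-negative ILC2. Hmgb1, an abundant chromatin protein gene, was also higher, at 864 ± 36.1 CPM in DN3, 258 ± 27.6 CPM in ZsGreen-positive and 279 ± 27.3 CPM in ZsGreen-negative ILC2. Ssrp1, part of the FACT histone chaperone, was at 384 ± 15.1 CPM in DN3, 184 ± 8.35 CPM in ZsGreen-positive and 180.2 ± 17 CPM in ZsGreen-negative ILC2, and was higher in both comparisons.

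**Figure D5:**
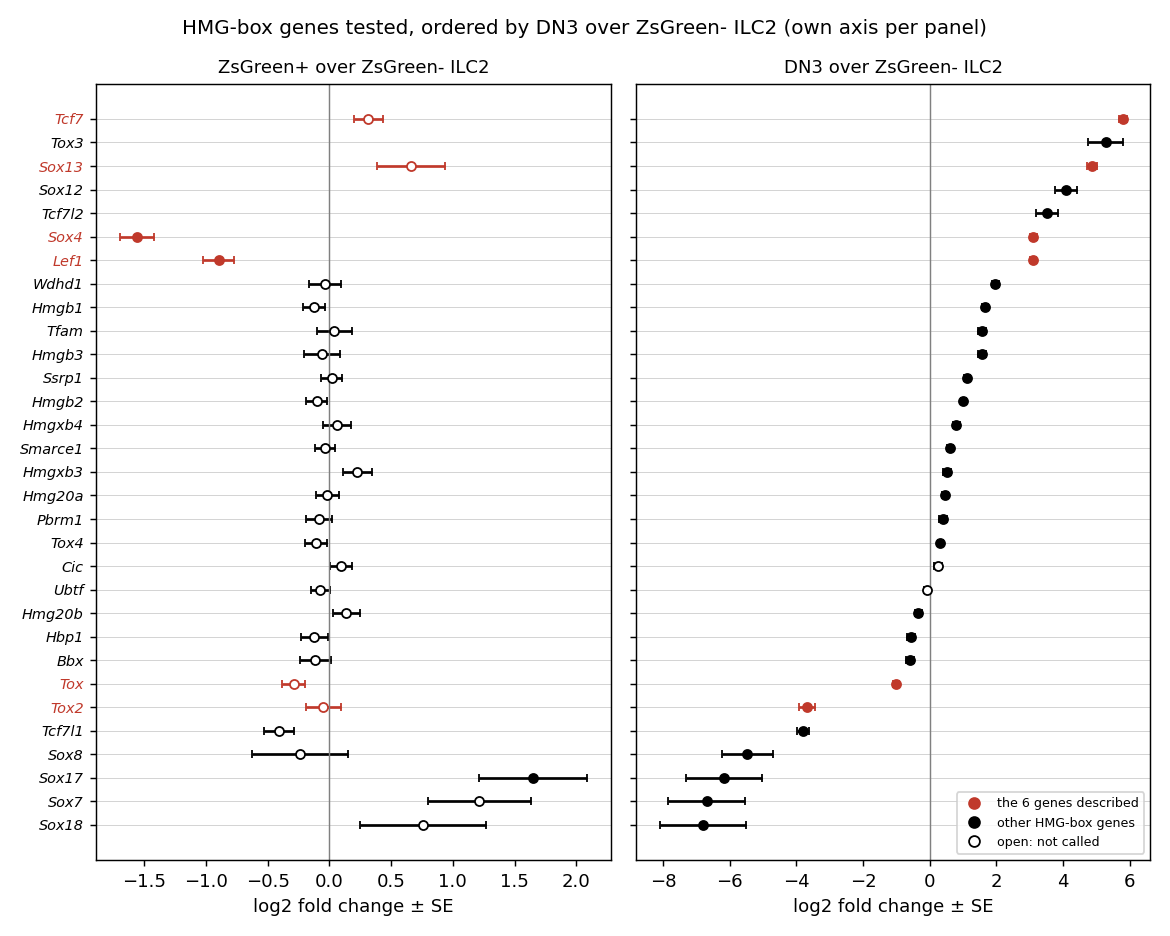
Log2 fold change ± SE of the HMG-box genes tested, ordered by DN3 over ZsGreen-negative ILC2 (right), with ZsGreen-positive over ZsGreen-negative ILC2 on the left; red marks the 6 genes described, filled points passed a BH-adjusted p of 0.05 in edgeR, and the panels have their own axes. In the lung, Sox4, Lef1 and Sox17 are the filled points, and in DN3 Tcf7 has the largest value, 5.81, with Tcf7l1 at −3.80.

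Genes of Wnt signalling and of the co-factors that TCF-1 and LEF-1 bind included 1 of 40 tested called higher and 0 lower between the lung groups in edgeR (median −0.01), or 2.5%, beside 4.52% over all genes. At an unadjusted p under 0.05, 8 were higher and 8 lower, DESeq2 called 2 and 2, and limma voom 2 and 1. The gene called by edgeR was Rnf43, a membrane inhibitor of Wnt receptors, at 24.5 ± 3.36 CPM in ZsGreen-positive and 12 ± 2.09 CPM in ZsGreen-negative ILC2 (log2 fold change 0.97 ± 0.14, SE; edgeR, BH-adjusted p = 0.000301). In DN3, 8 of 43 were higher and 27 lower than in ZsGreen-negative ILC2 (median −0.75), and 7 were higher and 25 lower than in ZsGreen-positive ILC2 (median −0.67). Called either way were 81.4% and 74.4%, near the 76.7% and 75.1% over all genes. Among those lower was Axin2, a target that beta-catenin and TCF factors induce in many tissues, at 10.46 ± 2.31 CPM in DN3, 82.4 ± 5.34 CPM in ZsGreen-positive and 97.7 ± 8.38 CPM in ZsGreen-negative ILC2, although DN3 held the highest Tcf7 and Lef1 levels. Jup, the gene of the beta-catenin relative plakoglobin, was at 4.57 ± 0.702 CPM in DN3, 78.8 ± 2.78 CPM in ZsGreen-positive and 69.2 ± 3.51 CPM in ZsGreen-negative ILC2. The Wnt co-receptor gene Ryk was at 1.21 ± 0.496 CPM in DN3, 40.9 ± 1.94 CPM in ZsGreen-positive and 34.1 ± 3.14 CPM in ZsGreen-negative ILC2. Dkk3, a secreted relative of Wnt antagonists, was at 0 counts in all DN3 libraries, at 72 ± 6.85 CPM in ZsGreen-positive and at 65.6 ± 4.66 CPM in ZsGreen-negative ILC2. A floor of 3 counts over the DN3 libraries makes DN3 at least 612-fold lower than ZsGreen-positive and at least 557-fold lower than ZsGreen-negative ILC2.

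Of 20 genes that work with TCF-1 in T lineage entry, 19 were tested between the lung groups. At an unadjusted p under 0.05 in edgeR, 3 were higher and 3 lower. DESeq2 and limma voom each called 1 higher and 1 lower. By adjusted p, edgeR called 1 of the 19 higher and 1 lower (median −0.03), beside 4.52% called over all genes. The higher one was Cd3g, on which the reporter depends, and the lower one was Hes1, a Notch target, at 89.97 ± 11 CPM in ZsGreen-positive and 155 ± 8.33 CPM in ZsGreen-negative ILC2 (edgeR, BH-adjusted p = 2.3e-05). In DN3, 12 of 20 were higher and 7 lower than in ZsGreen-negative ILC2 (median 1.29), and 13 were higher and 6 lower than in ZsGreen-positive ILC2 (median 1.24). Called either way were 95% in each, beside 76.7% (ZsGreen-negative) and 75.1% (ZsGreen-positive) over all genes. The progenitor factor gene Myb stood at 634 ± 21.8 CPM in DN3, 4.38 ± 1.45 CPM in ZsGreen-positive and 4.39 ± 1.41 CPM in ZsGreen-negative ILC2. Notch1, whose signal induces Tcf7 in early thymocytes, stood at 1281 ± 34.0 CPM in DN3, 85.4 ± 10.1 CPM in ZsGreen-positive and 71.3 ± 10.2 CPM in ZsGreen-negative ILC2. Id2, an inhibitor of E proteins that ILC need, was among the lower ones, at 10.2 ± 0.517 CPM in DN3 and 609 ± 92 CPM in ZsGreen-positive ILC2.

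Genes of ILC progenitors, the stage at which Tcf7 and Tox are required, included 0 called of 16 tested between the lung groups in edgeR (median −0.11), 2 higher and 2 lower at an unadjusted p under 0.05, 1 higher and 0 lower in DESeq2, and 0 in limma voom. Over all genes, edgeR called 4.52%. In DN3, 1 of 16 was higher and 15 lower than in ZsGreen-negative ILC2 (median −5.88), and 0 were higher and 15 lower than in ZsGreen-positive ILC2 (median −5.57), with the same counts in DESeq2, in limma voom and at an unadjusted p under 0.05. Called either way were 100% and 93.8%, beside 76.7% and 75.1% over all genes. The list shares Gata3, Rora, Il7r and Arg1 with the ILC2 markers, so the genes lower in DN3 partly restate the sorted identities. Nfil3, a factor needed for ILC precursors, was at 1.87 ± 0.667 CPM in DN3, 217 ± 9.24 CPM in ZsGreen-positive and 252 ± 26.2 CPM in ZsGreen-negative ILC2.

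The innate-like gamma-delta T cell programme, to which Sox4 and Sox13 contribute, had 5 of 15 tested genes called higher and 1 lower in ZsGreen-positive ILC2 by edgeR, or 40%, beside 4.52% over all genes, and a median of −0.13. DESeq2 and limma voom each called 5 higher and 2 lower, and at an unadjusted p under 0.05 in edgeR 6 were higher and 4 lower. The higher ones included the receptor gene Scart1, at 48.2 ± 15.6 CPM in ZsGreen-positive and 5.98 ± 1.32 CPM in ZsGreen-negative ILC2 (edgeR, BH-adjusted p = 7.5e-08). Trdc, the T cell receptor delta constant segment, was at 10.2 ± 1.75 CPM in ZsGreen-positive and 3.55 ± 0.74 CPM in ZsGreen-negative ILC2 (edgeR, BH-adjusted p = 0.000691). The gene called lower by edgeR was the cytokine gene Il17f, at 8.40 ± 1.5 CPM in ZsGreen-positive and 17.5 ± 4.18 CPM in ZsGreen-negative ILC2 (edgeR, BH-adjusted p = 0.0105). In DN3, 8 of 16 were higher and 8 lower than in ZsGreen-negative ILC2, and 6 were higher and 10 lower than in ZsGreen-positive ILC2. That is 100% called in each, beside 76.7% and 75.1% over all genes. The constant segments Trdc and Trgc2 were among the higher ones, and Maf, which acts with Sox factors in this programme, was at 4.25 ± 0.675 CPM in DN3, 243 ± 11.6 CPM in ZsGreen-positive and 264 ± 16.0 CPM in ZsGreen-negative ILC2.

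Genes linked with Tox in exhausted CD8 T cells were called higher in 3 of 13 tested, and lower in 0, in ZsGreen-positive ILC2 by edgeR (median 0.20), or 23.1% beside 4.52% over all genes, while Tox itself was not called. At an unadjusted p under 0.05 the counts were 6 and 0, in DESeq2 3 and 0, and in limma voom 4 and 0. The genes called by edgeR were Nfatc2, a calcium-dependent factor upstream of Tox in T cells, at 124 ± 1.36 CPM in ZsGreen-positive and 94.8 ± 11.1 CPM in ZsGreen-negative ILC2 (edgeR, BH-adjusted p = 0.0208), and the inhibitory receptor genes Ctla4 (edgeR, BH-adjusted p = 0.0298) and Havcr2 (edgeR, BH-adjusted p = 0.0347). In DN3, 3 of 14 were higher and 9 lower than in ZsGreen-negative ILC2 (median −2.29), and 2 were higher and 10 lower than in ZsGreen-positive ILC2 (median −2.56). Called either way were 85.7% in each, beside 76.7% and 75.1% over all genes. The nuclear receptor genes Nr4a1, Nr4a2 and Nr4a3 were among the lower ones; Nr4a1 was at 15.3 ± 2.36 CPM in DN3, 5563 ± 574 CPM in ZsGreen-positive and 6400 ± 888 CPM in ZsGreen-negative ILC2.

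Of 9684 other genes with a mean of at least 5 CPM over the 8 lung libraries, those whose log2(CPM + 1) followed a member most closely were taken by Pearson r, as a description over libraries that share batch and group. For Lef1 they were the ubiquitin ligase gene Rnf144b (r = 0.988), Adpgk (r = 0.985), which encodes a glucose-phosphorylating kinase, and Basp1 (r = 0.981). Rnf144b averaged 0.438 CPM in DN3, 9.25 CPM in ZsGreen-positive and 23.8 CPM in ZsGreen-negative ILC2, and so did not share the high DN3 level of Lef1. For Sox4 they included Snrnp27 (r = 0.980) and the Tec family kinase gene Txk (r = 0.978). For Tcf7 they were Nomo1 (r = 0.979), Wdr62 (r = 0.970) and Dnaaf9 (r = 0.928), for Sox13 Etv5 (r = 0.970), Snx25 (r = 0.968) and Eif4e3 (r = 0.966), for Tox Gcnt1 (r = 0.974), Rmnd5a (r = 0.972) and Cryzl2 (r = 0.956), and for Tox2 Cacna1a (r = 0.951), Tom1 (r = 0.934) and Klhdc8b (r = 0.932). Etv5, an ETS factor gene of the gamma-delta programme, was called higher in ZsGreen-positive ILC2, at 18.3 ± 1.83 CPM beside 10.9 ± 3.35 CPM in ZsGreen-negative ILC2 (edgeR, BH-adjusted p = 0.0444). By Spearman rank over the same libraries, 1 of the 3 genes for Tox and 0 of 3 for each other member were again among the closest 3.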

How the data were processed

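Per the labels' protocols, sorted cells gave RNA by PicoPure isolation and libraries by the mRNA kit of Watchmaker Genomics. The values are whole-number counts per gene that the authors deposited for 11 libraries with Ensembl identifiers and symbols. The submitters' processing notes name GRCm39 and DESeq2; which aligner, counter and annotation were used, and whether strand was, is not given in the sources used here. Promoter windows came from RefSeq (GRCm38.p6), and antisense neighbours from an annotation of GRCm38.

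The test was edgeR's quasi-likelihood F test (edgeR 4.0.16, R 4.3.3), with TMM scaling, robust estimation and genes kept by filterByExpr at 10 counts. P-values were adjusted by Benjamini-Hochberg (BH) over all tested genes, and 0.05 was the threshold. Lung groups were compared within the 8 lung libraries, batch being a term (13771 genes); DN3 were compared in a fit of all 11 libraries without one (15132 genes). Levels are CPM after TMM scaling over all 11 libraries, with SD. Replicates were compared by chi-square per degree of freedom, 1.73 to 13.4 over 16 pairs, and each was kept as a replicate. These values cannot show whether libraries came from separate mice.

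The 6 genes and all lists were chosen with earlier results of these data known. Named besides the 6 genes were, per list and comparison, up to 4 called genes ranked by p, if their higher group reached 5 CPM, or the 2 most abundant where none qualified, of which some are left out, and the 3 genes closest to each member in pattern. A gene that this rule takes is not reported here. Alternatives were other scalings, DESeq2 1.42.0, limma 3.58.1 voom, no filter, a replicate block, leaving out each library, other sets of libraries and, in the lung, no batch term or the structural marker score as a term. The scripts were tested on simulated counts.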

Additional observations from a re-analysis of the deposited data

How the results depend on the processing

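Sox4 was called lower in ZsGreen-positive ILC2 under all 18 alternatives (log2 fold change −1.70 to −1.49) and Lef1 under 17 (−0.97 to −0.81), the exception being the structural marker score as a term (edgeR, BH-adjusted p = 0.0845), which left 1 of the 6 genes called lower. The number of the 6 called higher in the lung ranged from 0 to 1 when each library was left out, reaching 1 (Tcf7) without ZsGreen-positive library 1, and was 1 (Sox13) in the fit of all 11 libraries. The number called lower ranged from 2 to 3 when each library was left out, with Tox added without ZsGreen-negative library 4. Tox2 ranged from −0.13 to 0.024 when each library was left out, turning positive without ZsGreen-positive library 1 (edgeR, BH-adjusted p = 0.974). The cause was not tested in any of these. Every DN3 call was kept under all 16 alternatives against ZsGreen-negative and all 14 against ZsGreen-positive ILC2.

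Over all genes, the lung comparison called 323 higher and 300 lower; it called 621 and 460 without the low-count filter, 145 and 153 in the 2024 batch alone, 146 and 140 when ZsGreen-negative library 5 was left out, 149 and 172 when ZsGreen-positive library 2 was, 148 and 154 when ZsGreen-positive library 3 was, and 11 and 34 with the structural score. Replicate numbers did not pair the samples: deviations of same-numbered lung libraries correlated at 0.116, −0.193 and −0.141, and of DN3 and lung libraries at −0.0604 to 0.067. The lung libraries numbered 3 are of different batches. The highest lung values were 0.276 (ZsGreen-positive 2 with ZsGreen-negative 3), 0.264 (ZsGreen-positive 3 with ZsGreen-negative 5) and 0.207 (ZsGreen-positive 1 with ZsGreen-negative 2). A pairing other than by number is not given in the labels and was not tested. With the replicate block the lung comparison called 130 and 103 genes, with Sox4 at −1.69 (edgeR, BH-adjusted p = 2.43e-05) and Lef1 at −0.90 (edgeR, BH-adjusted p = 0.00855), and the DN3 comparisons called the same 4 members higher and 2 lower. Without TMM scaling, DN3 levels were higher (Tcf7 2261 CPM, Tox 62.4 CPM). The lowest counts behind a member's value were 10 for Sox13 in the lung and 9 for Tox2 in DN3; the effect of depth was not tested.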
